A study of Homo sapiens with 2 samples.

Results

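The genes described here encode 10 carriers that move amino acids across the plasma membrane, SLC7A1, SLC7A5, SLC7A6, SLC7A11, SLC3A2, SLC38A1, SLC38A2, SLC1A4, SLC1A5 and SLC43A1. They were taken by name, and every probe set that the platform annotation assigns to 1 of them alone was included, which gave 27 of the 54613 probe sets on the array; 19775 genes had such a probe set. Transcript levels were measured in 2 cultures with the label HL60, the name of a leukaemia line of human promyelocytes, kept in RPMI with 10% serum: 1 given 3 µg/ml eltrombopag for 36 h, and 1 left untreated. Eltrombopag is a drug that activates the thrombopoietin receptor and chelates iron. No vehicle and no culture time are named for the untreated sample, and each group holds 1 array, so the differences given are between 2 arrays and have no replicate check. Drug and handling of the cultures cannot be told apart.

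Cells take up amino acids through carriers with overlapping substrates. Some are driven by the sodium gradient and concentrate neutral amino acids inside the cell, and others exchange an internal amino acid for an external one. Several exchangers of the SLC7 family reach the surface only as a disulfide-linked pair with the heavy chain SLC3A2, also called CD98, which carries no amino acid itself. Proliferating blood and leukaemia cells depend on these carriers for leucine, glutamine, arginine and cystine, and many of the genes are known targets of ATF4, the transcription factor of the amino acid response, of NRF2, encoded by NFE2L2, or of MYC.

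The values are deposited signals, a linear measure of the brightness of each probe set. Signals were raised to a floor of 56.9, the 60th percentile of both arrays pooled, before log2 was taken, and a gene is called measured when its brightest probe set exceeded the floor in at least 1 sample. Ratios are eltrombopag over untreated. Of 10313 measured genes, 9597 exceeded the floor on both arrays, and their median log2 ratio was -0.12, with quartiles of -0.37 and 0.11, so a transporter gene at the middle of the array has a log2 ratio slightly below 0. Between the 2 brightest probe sets of the same gene, the log2 ratios differed by a median of 0.21 in size over 4373 genes, with a 95th percentile of 0.76. This is a spread within these 2 arrays and is no error between cultures.

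The label HL60 was checked against marker genes. Of all 19775 genes on the array, 9597 lay above the floor on both arrays. Of 12 promyelocyte markers on the array, 10 lay above the floor on both arrays. Among them MPO, myeloperoxidase, had a signal of 1467 with eltrombopag and 1556 in the untreated sample, while ELANE, neutrophil elastase, and LYZ, lysozyme, lay below the floor in both. Of 18 plasma cell markers, 14 also lay above the floor on both arrays. Among them JCHAIN, the immunoglobulin joining chain, had 4866 with eltrombopag and 7972 untreated. IGLC1, a lambda light chain, had 6331 with eltrombopag and 10395 untreated, and a promyelocyte is not known for either gene. The other 4 of the 18 markers lay below the floor on both arrays: IGHG1, a heavy chain, IGKC, the kappa light chain, CD27 and CD79A. All genes named so far in this paragraph, and SRGN, were named after their values were seen. Of the 10 measured promyelocyte markers 7 had a log2 ratio below 0 and 2 were at least 1.5-fold lower, CTSG, cathepsin G, at -0.84 and RNASE2, a granule ribonuclease, at -0.76; the list's median was -0.21. Its summed signal was 18006 with eltrombopag and 16981 untreated, of which MYB, a transcription factor of blood progenitors, made up 5855 and 4349 and SRGN, the granule proteoglycan serglycin, 7685 and 7160. SRGN had log2 ratios from -0.88 to 0.38 over its 3 probe sets above the floor. The summed signal of the plasma cell markers was 18282 with eltrombopag and 30581 untreated; sums of different probe sets cannot be compared between the lists. With eltrombopag 13 of the 14 plasma cell markers had a log2 ratio below 0 and 10 were at least 1.5-fold lower. DERL3 was at least 1.5-fold higher, at 0.63, with -0.53 in a dimmer probe set. The list's median was -0.87, and IRF4, TNFRSF17, SLAMF7 and FKBP11 had -2.37, -2.10, -2.01 and -1.86. A dimmer SLAMF7 probe set had -0.39, and FKBP11 ran from -2.17 to -0.69 over its 3 above the floor. Of all measured genes, 63.4% had a ratio below 0, 11.8% were at least 1.5-fold lower and 3.49% higher. The markers of B cells, T and NK cells, monocytes, erythroid cells and megakaryocytes, and fibroblasts or epithelium were above the floor on both arrays for 2 of 5, 0 of 7, 0 of 4, 0 of 5 and 2 of 7 genes. Fewer cells of a type and less RNA per cell cannot be told apart in bulk RNA, and the part of the plasma cell signal in the transporter differences was not tested.

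All 10 transporter genes were above the floor on both arrays, beside 9597 of all 19775 genes. Of the 10, 0 reached a 2-fold difference in either direction. SLC7A11, the cystine importer, was 1.52-fold higher with eltrombopag. SLC7A5, the leucine exchanger, was 1.79-fold lower and SLC1A5, the glutamine exchanger, 1.55-fold lower. The remaining 7 genes had log2 ratios within 0.3 of 0. The quartiles of all genes above the floor on both arrays were -0.37 and 0.11, so log2 ratios of that size were common. Of all measured genes, 0.65% passed 2-fold upward and 2.27% downward, and 3.49% passed 1.5-fold upward and 11.8% downward. The transporter genes' median log2 ratio of -0.11, with quartiles of -0.26 and -0.02, lay beside the median of -0.12 of all measured genes; 5 of the 10 genes lay above the array's median and 5 below it.

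**Figure D1:**
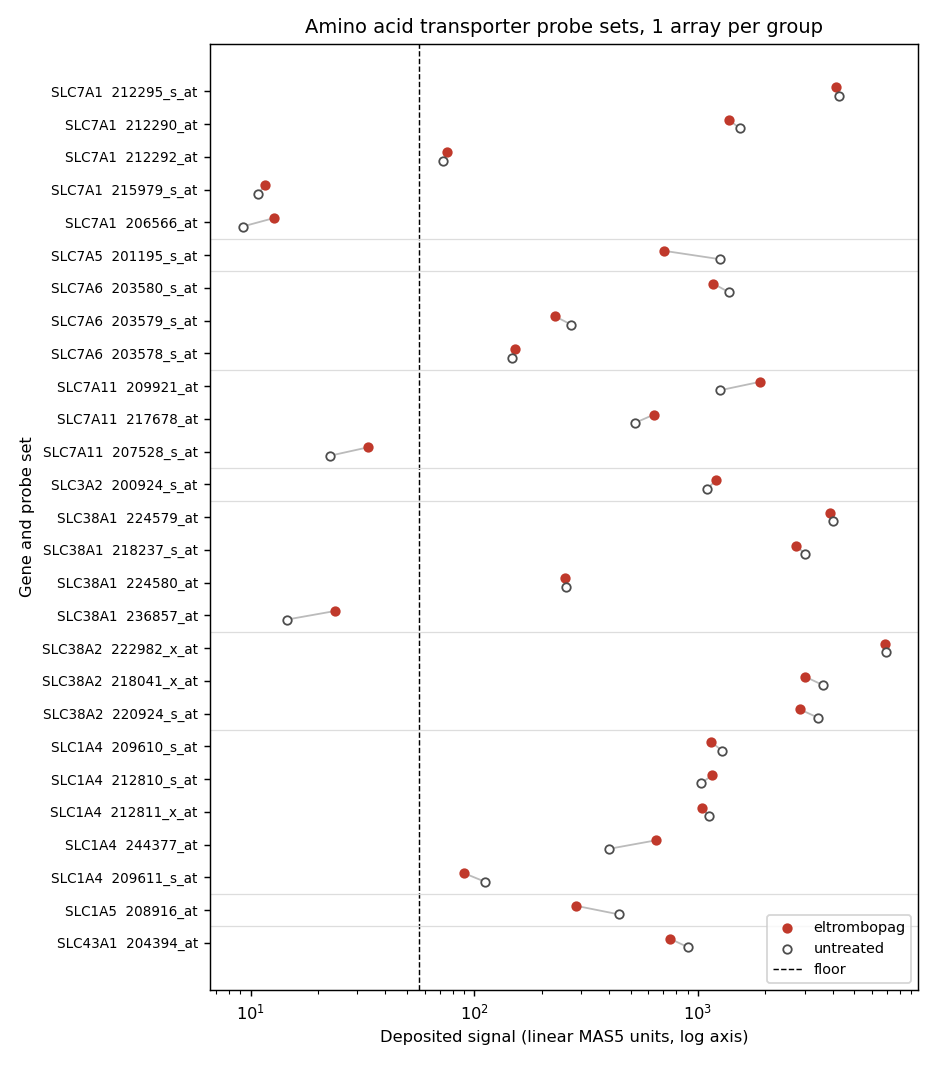
Deposited signal (horizontal log axis, linear MAS5 units) of each of the 27 transporter probe sets (rows, grouped by gene) with eltrombopag (filled) and untreated (open), 1 array each; the dashed line is the floor at 56.9. Most pairs of points nearly coincide, and SLC7A5, SLC1A5, the brightest SLC7A11 and 1 dimmer SLC1A4 probe set show the visible gaps above the floor.

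The brightest transporter probe sets on both arrays belonged to SLC38A2, SLC7A1 and SLC38A1. Their signals exceeded 99.7%, 99.3% and 99.2% of all probe sets with eltrombopag and 99.6%, 99.3% and 99.2% untreated. SLC1A5 was the dimmest of the 10, above 82.0% of probe sets with eltrombopag and 86.1% untreated. Probe sets differ in how strongly they bind, so these places describe the array and do not rank the amounts of the transcripts.

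SLC3A2 encodes the heavy chain shared by the SLC7A5, SLC7A6 and SLC7A11 exchangers. Its single probe set had a signal of 1209 with eltrombopag and 1101 in the untreated sample, a log2 ratio of 0.13. The heavy chain and its light chains did not differ by the same amount.

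SLC7A5, or LAT1, brings in leucine, phenylalanine and other large neutral amino acids in exchange for internal glutamine. Its single probe set read 702 with eltrombopag and 1259 untreated, a log2 ratio of -0.84, and 4.39% of measured genes had a lower ratio. Set against the heavy chain, the log2 ratio of SLC7A5 was lower by a difference of -0.98. A common scaling of an array cancels in that difference, and it lay between -0.98 and -0.97 after each scaling tried. Neither gene has another probe set here to set it against. Both probe sets have the suffix _s_at and may bind more than 1 transcript.

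SLC7A11, or xCT, takes up cystine in exchange for glutamate and so supplies cysteine for glutathione. Its brightest probe set, 209921_at, had 1900.3 with eltrombopag and 1254 untreated, a log2 ratio of 0.60, and 3.18% of measured genes had a higher one. A dimmer probe set, 217678_at, gave 636 and 521 with eltrombopag and untreated, a log2 ratio of 0.29, and the dimmest lay below the floor on both arrays, at 33.6 with eltrombopag and 22.6 untreated. Both probe sets above the floor were thus brighter with eltrombopag, and the third gives no direction. The brightest passed 1.5-fold, and the mean over both measured probe sets, 0.44, did not. The difference between them, 0.31, was exceeded by the probe sets of 32.9% of genes. Against the heavy chain, the SLC7A11 log2 ratio was higher by 0.47, and against SLC7A5 by 1.44.

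SLC7A6, or y+LAT2, exports arginine and lysine in exchange for neutral amino acids and sodium, again as a partner of SLC3A2. Its brightest probe set read 1168 with eltrombopag and 1370.1 untreated, a log2 ratio of -0.23. The second gave 229 and 272 with eltrombopag and untreated, a log2 ratio of -0.25, and the dimmest 151 and 148, a log2 ratio of 0.03. Relative to the heavy chain the brightest was lower by a log2 difference of -0.37.

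SLC7A1, or CAT1, is the main importer of arginine and lysine in many dividing cells and needs no heavy chain. Its brightest probe set had 4119 with eltrombopag and 4272 untreated, a log2 ratio of -0.05, and the next 1373 and 1536, a log2 ratio of -0.16. The next dimmer one, just above the floor, read 75.9 with eltrombopag and 72.2 untreated, a log2 ratio of 0.07. The other 2 probe sets lay below the floor on both arrays. The sign of the SLC7A1 log2 ratio depended on scaling: after median centring, quantile normalization and lowess it was 0.01, 0.01 and 0.02.

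SLC43A1, or LAT3, lets branched-chain amino acids and phenylalanine pass by facilitated diffusion without a heavy chain. Its single probe set read 748 with eltrombopag and 900 untreated, a log2 ratio of -0.27. SLC7A5, which carries many of the same amino acids, was lower than SLC43A1 by a log2 difference of -0.58.

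SLC38A2 and SLC38A1, or SNAT2 and SNAT1, are the sodium-driven concentrators of glutamine, alanine and other small neutral amino acids, and SNAT2 is a classical gene of the response to amino acid shortage. The brightest SLC38A2 probe set had 6879.7 with eltrombopag and 6944 untreated, a log2 ratio of -0.01. The other 2 had 3002 and 2849.5 with eltrombopag against 3616 and 3451 untreated, log2 ratios of -0.27 and -0.28. SLC38A1 had 3909 with eltrombopag and 4033 untreated in its brightest probe set, a log2 ratio of -0.04, with -0.12 and -0.02 in the other probe sets above the floor. The dimmest SLC38A1 probe set lay below the floor on both arrays. On the deposited scale these genes had the log2 ratios closest to 0 of all 10, and both had ratios slightly above 0 after the scalings: 0.04, 0.09 and 0.05 for SLC38A2 and 0.01, 0.04 and 0.03 for SLC38A1 after median centring, quantile normalization and lowess.

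SLC1A5, or ASCT2, exchanges glutamine for other small neutral amino acids and is often the main glutamine entry of tumour cells. Its single probe set read 285 with eltrombopag and 442 untreated, a log2 ratio of -0.63, and 9.91% of measured genes had a lower ratio. That value is close to the 1.5-fold limit, a log2 ratio of 0.58 in size, and it was -0.57, -0.50 and -0.51, inside the limit, after median centring, quantile normalization and lowess.

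SLC1A4, or ASCT1, exchanges serine, alanine and cysteine, and its 5 probe sets did not point one way. The brightest, 209610_s_at, had 1146 with eltrombopag and 1280.5 untreated, a log2 ratio of -0.16. The next, 212810_s_at and 212811_x_at, had 1161 and 1039 with eltrombopag against 1035 and 1124 untreated, log2 ratios of 0.17 and -0.11. The probe set 244377_at was 1.62-fold higher, with 649 with eltrombopag and 400.1 untreated, and the dimmest, 209611_s_at, gave 89.8 and 111, a log2 ratio of -0.31. SLC1A4 therefore has no settled direction. SLC1A5 was lower than the brightest SLC1A4 probe set by a log2 difference of -0.47.

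**Figure D2:**
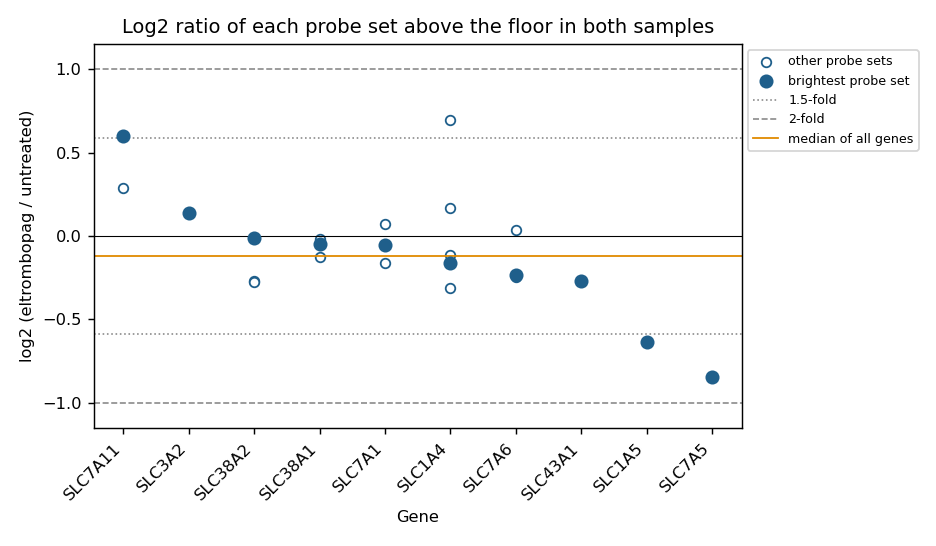
Log2 ratio of eltrombopag over untreated (vertical axis) for each transporter gene (horizontal axis, from the highest to the lowest brightest probe set); filled points are the brightest probe set and open points the others above the floor on both arrays, 23 in all. The dotted and dashed lines mark 1.5-fold and 2-fold and the orange line the median of all genes at -0.12; SLC7A11 lies just outside 1.5-fold above, SLC1A5 and SLC7A5 below, and the SLC1A4 probe sets spread from -0.31 to 0.70.

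Over the 23 transporter probe sets above the floor on both arrays, 7 had a ratio above 0 and 16 below, with a range of -0.84 to 0.70 and a median of -0.11. Of all measured genes, each counted by its brightest probe set, 63.4% had a ratio below 0. Of the 6 genes with several such probe sets, 3 had all of them on the same side of 0: SLC7A11, SLC38A1 and SLC38A2. Over the 4373 genes of the array with several, the 2 brightest had opposite signs in 27.5%, a share that leaves out dimmer probe sets. The 4 genes with a single probe set, SLC7A5, SLC3A2, SLC1A5 and SLC43A1, include both genes that were at least 1.5-fold lower, so neither of those values could be compared with another probe set of its gene.

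**Figure D3:**
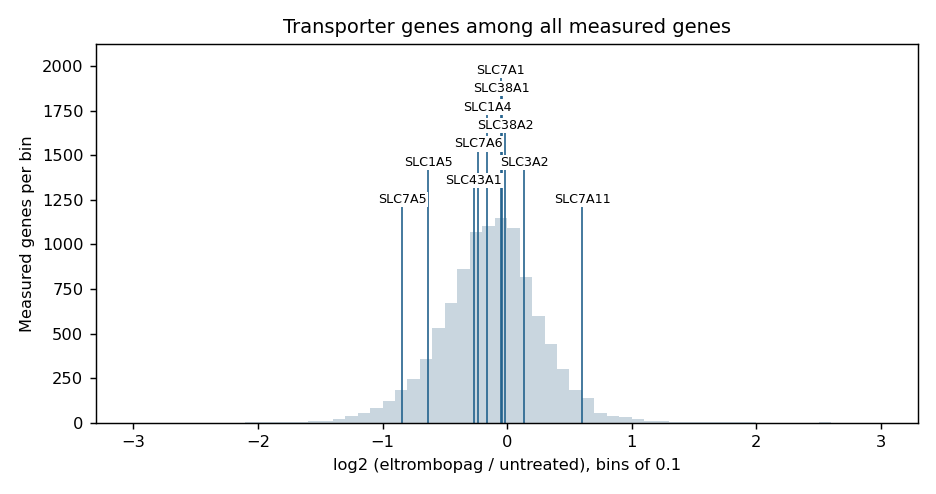
Number of measured genes (vertical axis, 10313 in all) by log2 ratio of eltrombopag over untreated (horizontal axis, bins of 0.1), with a line at each transporter gene's value. SLC7A11 lies on the upper flank, SLC1A5 and SLC7A5 on the lower flank, and the other 7 genes near the centre.

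The share of higher genes among all 1.5-fold differences was 22.9% as deposited, 31.4% after median centring, 43.3% after quantile normalization and 42.7% after lowess; at 2-fold these shares were 22.3%, 30.6%, 44.8% and 44.0%. SLC7A11 remained at least 1.5-fold higher and SLC7A5 at least 1.5-fold lower after each of these scalings, with log2 ratios of 0.66, 0.68 and 0.68 for SLC7A11 and -0.78, -0.76 and -0.75 for SLC7A5 after median centring, quantile normalization and lowess.

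Promoter sequences of the carriers were read from RefSeq (GRCh38.p14), in windows of 300 bases that run from 250 bases before an annotated start to 50 after it. Windows were found for 9 of the 10 genes, 16 in all, and none was used for SLC7A11. They were searched on both strands for 3 motifs, chosen with the values known, and matches of different motifs did not overlap. The E-box CACGTG, the site type that MYC binds, which reads the same on both strands, lay in a window of 3 of the 9 genes, SLC7A5, SLC1A5 and SLC43A1, against 8.77% of all genes with a window, and in 3 of the 16 transporter windows, against 7.26% of all windows. Their log2 ratios were -0.84, -0.63 and -0.27, the last beside the -0.23 of SLC7A6, for which no CACGTG was found; as the motif was chosen with these values known, nothing is read from that. The stretches are shown because they include both genes that were at least 1.5-fold lower, 5′ to 3′ on the gene's strand, with CACGTG in capitals. For SLC7A5 (chr16:87869508-87869657, minus strand) and SLC43A1 (chr11:57515703-57515852, minus strand) they are the 150 bases before the outermost annotated start, and the motif begins 130 and 112 bases before it. For SLC1A5 (chr19:46787326-46787355, minus strand) they are 30 bases around a motif that begins 50 bases before an internal start.
SLC7A5: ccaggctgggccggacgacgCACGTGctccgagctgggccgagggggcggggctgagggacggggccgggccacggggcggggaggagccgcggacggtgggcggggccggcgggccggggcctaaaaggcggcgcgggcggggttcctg
SLC43A1: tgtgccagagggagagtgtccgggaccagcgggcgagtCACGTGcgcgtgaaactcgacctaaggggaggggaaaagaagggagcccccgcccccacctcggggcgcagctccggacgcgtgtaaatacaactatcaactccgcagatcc
SLC1A5: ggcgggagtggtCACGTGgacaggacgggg

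The second motif, TGATGNAA, is the type of site that ATF4 binds together with C/EBP factors in the amino acid response. It lay in a window of 5 of the 9 genes, SLC7A1, SLC3A2, SLC38A1, SLC1A4 and SLC1A5, against 4.46% of all genes, and in 5 of the 16 windows, against 3.62% of all windows; the transporter genes have 1.78 windows each against 1.29 for all genes. The log2 ratios of these 5 genes ran from -0.63 for SLC1A5 to 0.13 for SLC3A2. The matches of SLC7A1 and SLC3A2 begin 7 and 37 bases after the annotated start of their window. Those of SLC38A1, SLC1A4 and SLC1A5 begin 4, 7 and 97 bases before it. The sites of these 5 genes are shown in 30 bases each, with the match in capitals, which for SLC3A2 and SLC1A4 reads on the opposite strand. They lie at chr13:29595663-29595692 (minus strand) for SLC7A1, chr11:62881719-62881748 (plus strand) for SLC3A2, chr12:46266502-46266531 (minus strand) for SLC38A1, chr2:64989381-64989410 (plus strand) for SLC1A4 and chr19:46784893-46784922 (minus strand) for SLC1A5; only that of SLC7A1 belongs to the outermost start.
SLC7A1: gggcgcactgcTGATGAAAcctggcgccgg
SLC3A2: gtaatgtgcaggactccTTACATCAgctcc
SLC38A1: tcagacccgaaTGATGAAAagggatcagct
SLC1A4: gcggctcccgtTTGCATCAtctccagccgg
SLC1A5: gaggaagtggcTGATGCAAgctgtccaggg
The third motif, TGACNNNGC, the core of the antioxidant response element that NRF2 binds, lay in a window of 5 of the 9 genes, SLC7A1, SLC7A5, SLC7A6, SLC3A2 and SLC1A5, against 16.1% of all genes, and in 5 of the 16 windows, against 13.3% of all windows. A match is a description of the letters and not a site of binding.

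In their brightest probe sets, genes known to regulate the carriers differed little. Of 17 measured regulators, 0 reached 1.5-fold, beside 3.49% of all measured genes higher and 11.8% lower. A log2 ratio above 0 was found for 9 and below 0 for 8, and the median was 0.03. Against the array's median, 13 lay above and 4 below. Dimmer probe sets of CEBPG and EIF2AK1 passed 1.5-fold. CEBPG had 0.72 there and -0.11 in its brightest, and EIF2AK1 -0.67 and -0.21. ATF4 read 5765 with eltrombopag and 5374 untreated, and EIF2AK4, the kinase GCN2 that senses uncharged tRNA, 505 and 507, log2 ratios of 0.10 and 0.00. MYC and NFE2L2 had -0.12 and -0.11. The furthest from 0 were DDIT3, the stress factor CHOP, at 0.54, EIF2AK3, the kinase PERK of the endoplasmic reticulum, at 0.37, BACH1, a repressor at NRF2 sites, at -0.34 and MYCN, close to the floor, at 0.23. DDIT3 passed 1.5-fold after each scaling.

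Other genes of the amino acid response differed in both directions. Of 23 measured targets that are not carriers, 3 were at least 1.5-fold higher in their brightest probe sets, beside 3.49% of all measured genes. At least 1.5-fold lower was 1, beside 11.8% of all measured genes. The median was 0.04, and 14 lay above the array's median and 9 below it. The higher ones were ASNS, asparagine synthetase, at 0.68, SARS1, seryl-tRNA synthetase, at 0.63 and CTH, which makes cysteine from cystathionine, at 0.61, with 0.21 in a second CTH probe set. ALDH18A1, of proline synthesis, was lower, at -0.64, but 0 genes of the list were 1.5-fold lower after any of the scalings. Dimmer probe sets of PSAT1 and SHMT2 passed 1.5-fold downward, at -1.18 and -0.72. With probe sets averaged, 2 genes of the list were at least 1.5-fold higher and 2 lower. Among the carriers known as targets of the same response, SLC7A11 thus lay on the higher side and SLC7A5 on the lower side. SLC38A2, SLC7A1, SLC3A2 and SLC1A4 stayed within 0.3 of 0 in their brightest probe sets. SLC1A5, the lowest of the 5 genes with a TGATGNAA match, had -0.63.

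The other amino acid carriers were mostly dim. Of 40 with a probe set, 27 had their brightest one below the floor on both arrays and 13 were measured, beside 52.2% of all genes. Among the 27 were SLC7A7 and SLC7A8, further light chains of SLC3A2. Of the 13 measured, 4 were lower by 1.5-fold or more and 0 higher by as much, beside 11.8% and 3.49% of all measured genes. The median was -0.25. SLC36A1, a proton-coupled carrier of lysosomes, was 2.04-fold lower, at 97.9 with eltrombopag and 200.2 untreated. SLC16A10, which passes aromatic amino acids, SLC38A7, a lysosomal glutamine exporter, and SLC38A5, a glutamine carrier of the surface, had log2 ratios of -0.91, -0.78 and -0.73. SLC36A4 had 0.51, SLC38A9, the lysosomal arginine sensor, -0.25, with 0.43 from a dimmer probe set, SLC43A2 -0.22 and SLC43A3 -0.04. The count of lower ones was 2 when probe sets were averaged, 1 under the higher floor (75th percentile) and 9 without a floor, where 10 were higher.

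A further list holds genes that use the imported amino acids or act further along their pathways. Of its 14 measured genes, 12 had a ratio below 0, beside 63.4% of all measured genes, and 9 lay below the array's median. At least 1.5-fold lower were 4, beside the 11.8% of all measured genes, and 0 were at least 1.5-fold higher; the median was -0.39. The count of lower genes was 3 after quantile normalization, lowess, the centring added after seeing the data or with the higher floor, and 5 without a floor or with probe sets averaged. ODC1, which turns ornithine into the polyamine putrescine, was 2.41-fold lower, at 983 with eltrombopag and 2369 untreated. GPX4, the peroxidase that spends glutathione on lipid peroxides, and BCKDHB, of branched-chain amino acid breakdown, had log2 ratios of -0.94 each. Of the ligase that starts glutathione synthesis from cysteine, the modifier subunit GCLM had -0.65 and the catalytic subunit GCLC 0.13, beside 0.60 for the cystine importer SLC7A11.

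Genes by which mTORC1, the growth kinase complex, senses amino acids had a median of -0.07 over 19 measured genes. Of these, 5 were lower by 1.5-fold or more and 0 higher by as much, beside 11.8% and 3.49% of all measured genes. CASTOR2, an arginine sensor paralogue, LAMTOR3 and LAMTOR2, of the lysosomal scaffold, and SESN3, a sestrin, had log2 ratios of -0.94, -0.68, -0.67 and -0.66. After quantile normalization or lowess the count of lower genes was 1 and that of higher genes 1. MTOR had 0.03 and LARS1, leucyl-tRNA synthetase, 0.30. Of 8 measured genes for partners and traffic of surface carriers, 2 were at least 1.5-fold lower, beside 11.8% of all measured genes. LAPTM4B, a lysosomal protein that binds the SLC7A5 and SLC3A2 pair, had -0.85. TXNIP, an arrestin-like protein that restrains nutrient uptake, had -0.82. Both values come from probe sets with the suffix _s_at, which may bind more than 1 transcript. LAPTM4B had -1.22 to -0.84 over its 3 probe sets above the floor, and TXNIP -1.11 to -0.68 over its 3. BSG had -0.38, and CD44, whose protein can stabilise SLC7A11 at the surface, -0.35, with -0.97 to 0.38 over its 8 probe sets above the floor.

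**Figure D4:**
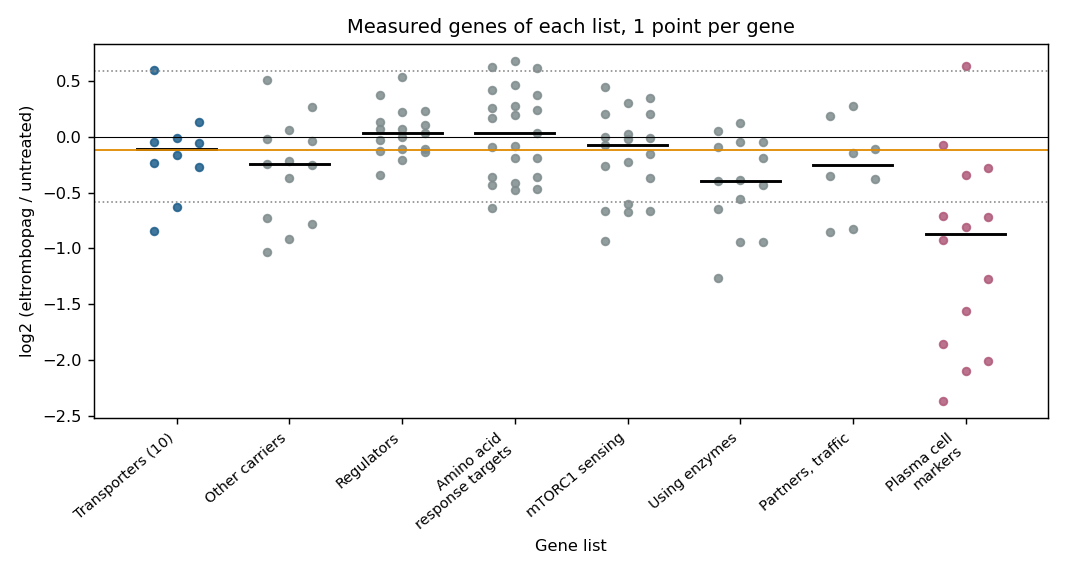
Log2 ratio of eltrombopag over untreated (vertical axis) for each measured gene of the transporter genes, 6 related lists and the plasma cell markers (horizontal axis), with black bars at the medians, dotted lines at 1.5-fold and an orange line at the median of all genes. The transporter genes centre on -0.11 and the plasma cell markers on -0.87. The list marked as using enzymes, which also holds genes further along the pathways, centres on -0.39.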

How the data were processed

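Biotinylated cRNA from 2 samples was hybridised to expression arrays, 1 array per group. The values are intensities as the authors deposited them, on a linear scale, 1 per probe set and array. The submitters' processing notes name MAS5, without a version; for its scaling target and detection calls, the sources used here say nothing. This method subtracts background array by array, so dim signals carry large relative error, and the number of arrays limits the precision. Probe sets were named from the platform annotation: 41091 had 1 gene, 1801 several and 11721 none listed; updating symbols through RefSeq identifiers changed 0.

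Signals were raised to the floor at the 60th percentile, and the probe set with the highest mean log2 signal stood for a gene. With 1 sample per group no test was made and no p-value is given; genes were counted past 1.5-fold and 2-fold beside the share of all measured genes. The carriers, 6 related lists, 7 marker lists and motifs were chosen with earlier results of these data known. From each related list and the plasma cell markers the 4 measured genes furthest from 0 were named, and so was a fixed panel. For the other marker lists this was not done in full. DERL3, CEBPG, EIF2AK1, PSAT1 and SHMT2 were named after their values were seen. The alternatives were 8 planned ones of scaling (lowess span 0.3), floor and probe set choice, and 1 added after seeing the data. Python 3.11.15, numpy 2.4.6, pandas 2.3.3 and statsmodels 0.14.6 were used.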

Additional observations from a re-analysis of the deposited data

How the results depend on the processing

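The counts of transporter genes past 2-fold stayed at 0 in both directions under all 9 alternatives, and the median log2 ratio of the transporter genes lay between -0.11 and 0.01. At 1.5-fold, 1 gene was higher and 2 lower as deposited. The higher count was 0 with the mean over measured probe sets and 2 when only probe sets without an _x_at or _s_at suffix were kept, where SLC1A4 rests on the probe set with a log2 ratio of 0.70 and joins SLC7A11, and where SLC7A5, SLC7A6, SLC3A2 and SLC38A2 have no probe set left. The lower count was 1 after median centring, quantile normalization, lowess and the centring on the median log2 ratio of all genes above the floor, which was chosen after seeing the data, and 1 with that restriction of the probe sets. Over the alternatives SLC7A5 lay between -0.84 and -0.72, SLC1A5 between -0.63 and -0.50 and SLC7A11 between 0.44 and 0.72. SLC7A1, SLC38A1 and SLC38A2 changed sign under each of the 4 scalings, and SLC1A4 under both probe set alternatives.

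Over all genes, 67 were at least 2-fold higher and 234 lower, and 360 at least 1.5-fold higher and 1215 lower. In that order these counts were 108, 133, 593 and 777 after quantile normalization, 106, 135, 582 and 782 after lowess, 105, 141, 598 and 792 after the added centring, 37, 98, 238 and 709 with the higher floor (75th percentile), and 1195, 1324, 2486 and 3340 without a floor, where 19682 genes count as measured. The cause was not tested, except that the floor sets how many dim genes enter. No paired analysis was possible because each group holds 1 sample, and for the same reason no replicate could be left out.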
